A study of Mus musculus with 20 samples.

Results

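Collagen genes were followed through neutrophil RNA-seq libraries from a mouse model of pancreatic cancer cachexia. A gene counted as a collagen gene when its symbol in the table of raw counts has the form Col, a type number, a and a chain number, as in Col1a1, and when at least 1 of the 20 libraries held a read for it. The rule found 42 of the 51912 genes. Of 44 symbols of this form, Col9a1 and Col26a1 were at 0 in every library.

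The study asked how neutrophils that enter the brain of mice with pancreatic ductal adenocarcinoma (PDAC) differ from those elsewhere in the body. The mice were C57BL/6, aged 7 to 12 weeks across the study's experiments. Tumor mice received KPC PDAC cells, a line from pancreatic tumors of C57BL/6 mice whose tumor alleles are switched on by a pancreatic Cre driver, and sham mice received PBS. At 10 days post inoculation (d.p.i.), live single cells high for CD11b and Ly6G were sorted from brain, liver, tumor and blood of the tumor mice, and from sham blood. Each of the 5 groups has 4 libraries. The labels do not say which libraries share a mouse, so p-values measure only the spread between these libraries, which may be technical.

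Collagens are proteins, most of them secreted, whose chains wind in sets of 3 into a triple helix. Fibrillar collagens such as types I and III form the fibers of connective tissue and of tumor stroma and are made mainly by fibroblasts, whereas type IV forms the network of basement membranes under endothelium and epithelium. Neutrophils are best known in this context for enzymes that cut collagen, including the collagenase Mmp8.

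Libraries held 47388245 to 54472378 counts. Levels are given in CPM, a gene's reads relative to the library total, after scaling by the trimmed mean of M-values (TMM), and all intervals on counts cover counting error only, since reads carried no molecular identifiers. A gene was called when edgeR's adjusted p was under 0.05 and its log2 fold change at least 2 in size. Of 14 neutrophil markers, 10 were called lower in tumor than in the blood of tumor mice, where 3.27% of all genes were. By contrast, Il1r2 (1874 to 5349 CPM in tumor) and Itgam (263 to 356 CPM), the gene of CD11b, overlapped with that blood. Ly6g, the gene of the sorted surface protein, stood at 229 to 472 CPM in brain, 66.0 to 154 CPM in liver, 117 to 316 CPM in tumor mouse blood and 33.3 to 86.3 CPM in sham blood, but at 1.43, 9.28, 2.72 and 13.2 CPM in tumor libraries 1, 2, 3 and 5. The summed level of these markers was 6029 to 16970 CPM in tumor and 31501 to 126622 CPM in the other groups. Krt18, a keratin of epithelial cells, was at 238 to 690 CPM in tumor and at most 45.1 CPM elsewhere. Tumor libraries 1 and 3, with the least Ly6g, stand apart in several collagens, and counts of calls that involve tumor are given with and without them. In RNA pooled from many cells, fewer cells of a type and less RNA per cell cannot be told apart.

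Collagen transcripts were scarce in the blood libraries, had higher mean levels in the brain and liver libraries, and the highest in the libraries labelled tumor. Summed over the collagen genes, brain libraries 2, 3, 4 and 5 held 93.4, 75.2, 160.2 and 62.0 CPM. Liver libraries 1 to 4 held 35.8, 56.9, 95.8 and 97.9 CPM. Tumor libraries 1, 2, 3 and 5 held 999, 157, 607 and 118 CPM. Every tumor library was above every liver and blood library, while tumor libraries 2 and 5 lay within the range of the brain libraries. The blood of tumor mice gave 24.7, 33.9, 26.2 and 44.7 CPM and that of sham mice 32.7, 24.3, 24.9 and 23.8 CPM, so the blood groups overlapped, and liver library 1 lay among them. The means were 97.7 ± 43.6 CPM in brain, 71.6 ± 30.4 CPM in liver, 470.1 ± 416 CPM in tumor, 32.4 ± 9.14 CPM in the blood of tumor mice and 26.4 ± 4.19 CPM in sham blood (SD, n = 4 each).

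**Figure D1:**
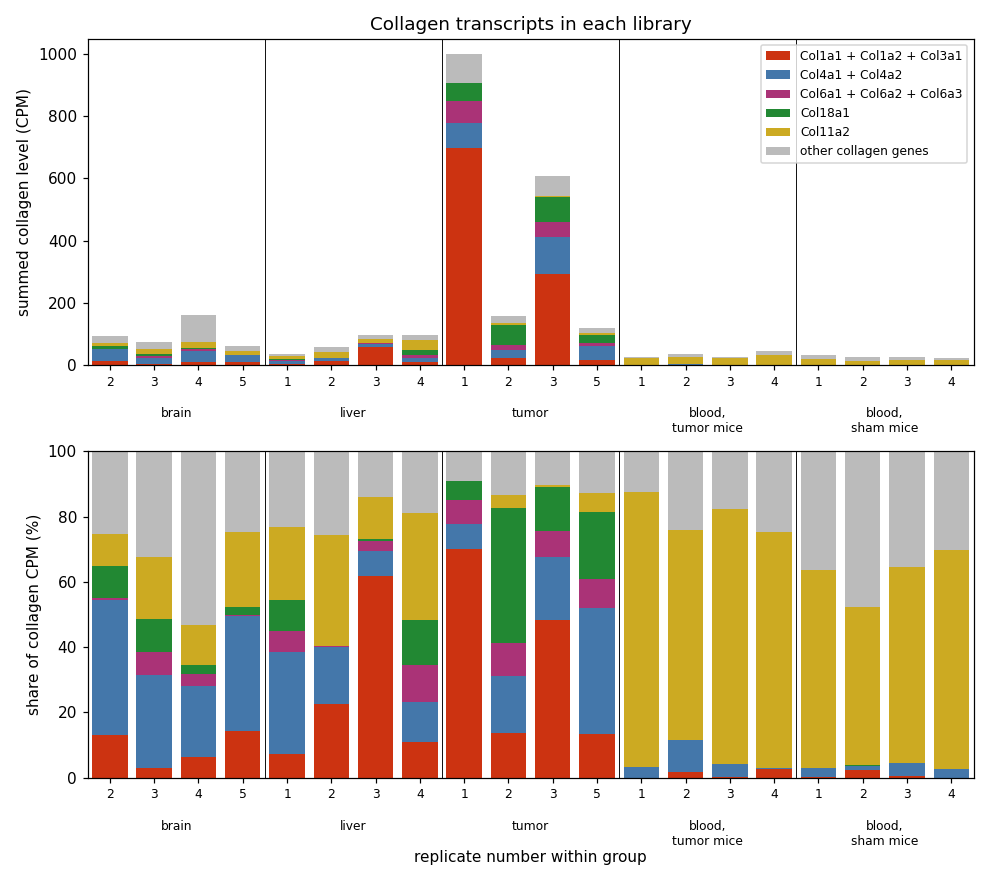
Summed collagen level in CPM (top) and its make-up in percent (bottom) for each of the 20 libraries, by group and replicate number. Tumor libraries 1 and 3 rise to 999 and 607 CPM, with the largest part from Col1a1, Col1a2 and Col3a1, while Col11a2 makes up 48.4% to 84.1% of the collagen level in the blood libraries.

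The make-up of this sum differed between groups. Col1a1, Col1a2 and Col3a1, the chains of collagen types I and III, together took 69.9%, 13.6%, 48.1% and 13.4% of the collagen level in tumor libraries 1, 2, 3 and 5, 2.93% to 14.2% in brain, 7.25% to 61.8% in liver and 0% to 2.56% in the blood of tumor mice. Col4a1 and Col4a2, the main chains of type IV collagen, took 21.9% to 41.2% in brain, against 0.290% to 9.75% in the blood of tumor mice. Col11a2, a chain of the fibrillar type XI collagen best known from cartilage, took 64.3% to 84.1% in the blood of tumor mice, 48.4% to 67.2% in sham blood and 0.0462% to 5.82% in tumor. Per kilobase of exon, Col11a2 was the most abundant collagen in both blood groups on the scale of mean CPM, with 3.47 CPM per kb in tumor mice and 2.28 CPM per kb in sham mice. In tumor the highest mean levels per kilobase were 13.2 CPM per kb for Col1a1 and 11.6 CPM per kb for Col3a1.

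Detection varied widely among members, and 21 of them had reads in fewer than 10 libraries. Reads of 41 collagen genes were found in brain, 37 in tumor, 31 in liver, 24 in the blood of tumor mice and 23 in sham blood. Col11a2, Col4a2 and Col20a1 were counted in all 20 libraries, Col19a1 in 1 library only, and 19 members had over 50% of their reads in 1 library. The other 24 members, those neither called nor among the 10 most abundant, stayed at or below 6.72 CPM in every library, except Col9a3 in 1 brain library. The first exons of Col4a1 and Col4a2 share 22 bases on opposite strands, and without a stated strand setting reads from there cannot be told apart.

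**Figure D2:**
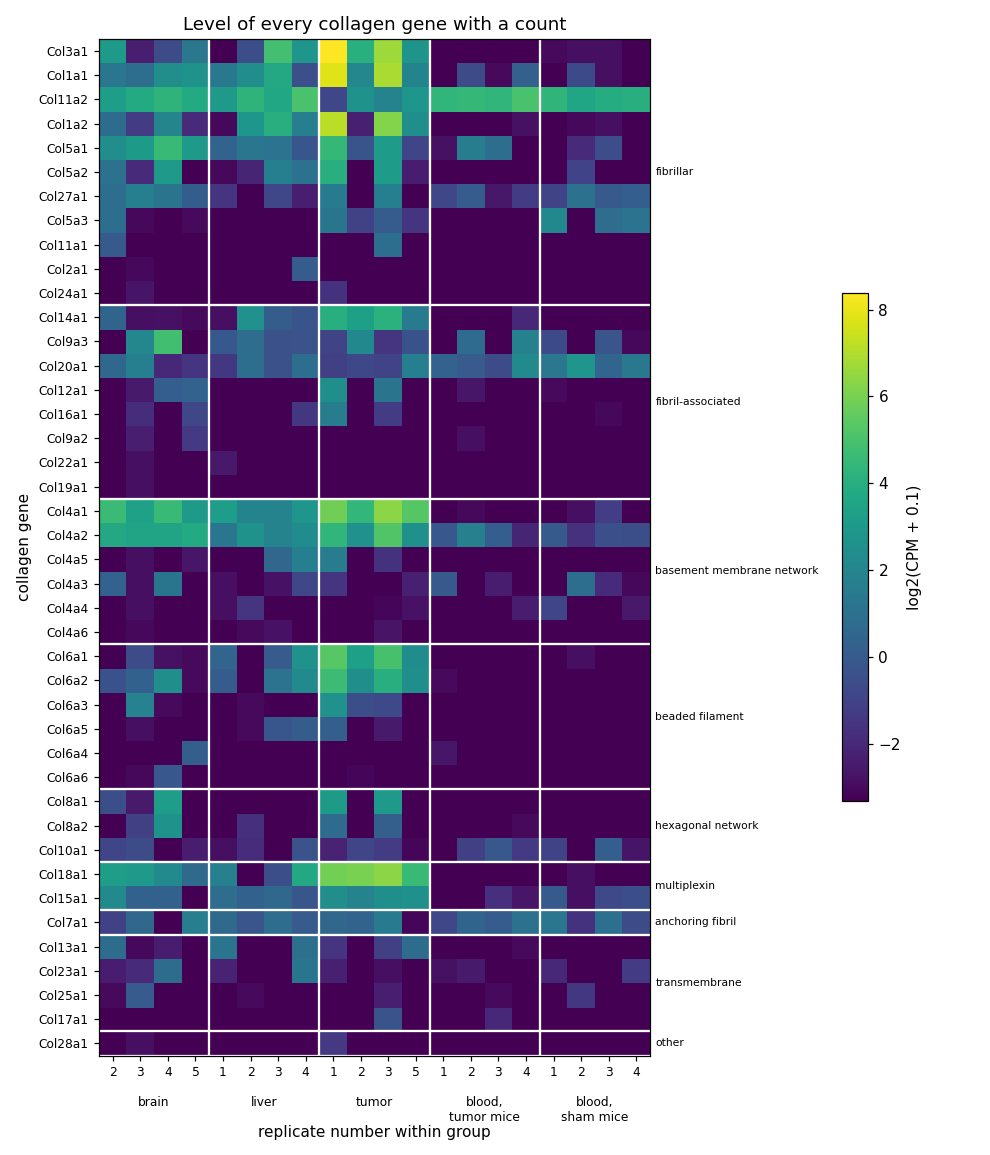
Level of each of the 42 collagen genes (rows, grouped by structural class) in each of the 20 libraries (columns), as log2(CPM + 0.1). Col11a2 is dimmer in every tumor library than in any other library, and Col4a1 is brighter in every tissue library than in any blood library. Col18a1 is dark in blood and brighter in every brain and tumor library, but is at 0 and 0.607 CPM in liver libraries 2 and 3. Many rows are lit in 1 or 2 libraries only.

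Col1a1, Col1a2 and Col3a1, the chains of types I and III, rose in the libraries labelled tumor over the blood of tumor mice. Col3a1, the chain of type III collagen (ENSMUSG00000026043, chr1:45311538-45349706 on mm10, plus strand), stood at 333, 16.98, 100.2 and 6.55 CPM in tumor libraries 1, 2, 3 and 5 and had no read in the 4 blood libraries of tumor mice. The groups did not overlap, and the level was at least 7255-fold higher in tumor against a floor of 3 reads over the group (edgeR adjusted p = 0.000346). Col1a1, the alpha 1 chain of type I collagen, was at 221, 4.21, 118 and 3.78 CPM in tumor and at 0, 0.569, 0.0221 and 1.10 CPM in the blood of tumor mice. Its log2 fold change was 7.67 ± 1.56 (SE, edgeR adjusted p = 0.000815). Col1a2, the alpha 2 chain of type I collagen, was at 145, 0.102, 74.0 and 5.57 CPM in tumor and had 2 reads in the blood of tumor mice, a ratio of 5387 with a 95% counting interval of 1491 to 44487 (edgeR adjusted p = 0.000229). In each of these 3 genes tumor libraries 1 and 3 stood above the other tumor libraries. Without both, Col3a1 and Col1a2 were still called (adjusted p = 0.00238 and 0.00872) and Col1a1 was not (0.183).

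Tumor libraries 1 and 3 also held more of some genes that mark fibroblasts. Dcn, a small proteoglycan of collagen fibers, was at 65.5, 1.47, 10.8 and 0.608 CPM in tumor libraries 1, 2, 3 and 5 and at 0 to 0.0221 CPM in blood. Fbln1, a matrix glycoprotein, was at 5.81, 0.0146, 4.07 and 0.0169 CPM, and at 0 in every liver and blood library. In tumor against the blood of tumor mice, 9.5% of all genes were called higher and 3.27% lower. The list of 14 fibroblast markers had 7 members called higher and 1 (Pi16) lower in this comparison. Its sum was 1112, 1578, 1295 and 1064 CPM in tumor libraries 1, 2, 3 and 5 and 1237 to 1963 CPM in the blood groups. This sum was led by Gsn and Pi16, which blood libraries expressed at 618 CPM or more and 617 CPM or more. Leaving out this pair, a trim made after seeing the values, the sum was 192, 53.0, 228 and 22.7 CPM in tumor libraries 1, 2, 3 and 5, 6.83 to 13.6 CPM in brain, 1.32 to 20.3 CPM in liver and 0.262 to 3.30 CPM in the blood groups. Dpt had reads in 1 tumor library alone, and Clec3b in no tumor library. The part of such cells in the collagen levels was not tested.

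The minor fibrillar chains followed with fewer reads. Col5a2, a type V chain that is built into type I fibers, was at 16.2, 0, 8.66 and 0.0844 CPM in tumor and had no read in the blood of tumor mice, so it was at least 400-fold higher with overlapping groups (edgeR adjusted p = 0.0144). Col5a3, another type V chain, was at 2.26, 0.393, 0.970 and 0.236 CPM in tumor and at 0 in the blood of tumor mice, at least 61.3-fold higher (adjusted p = 0.0202). Col5a1, the main type V chain, was not called (log2 fold change 2.75 ± 1.41 SE, adjusted p = 0.165), with tumor values of 22.1, 0.729, 8.53 and 0.439 CPM. Neither type V call held without both tumor libraries 1 and 3 (adjusted p = 0.334 for Col5a2 and 0.0887 for Col5a3), and that of Col5a2 was lost with lane as a term (0.247).

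**Figure D3:**
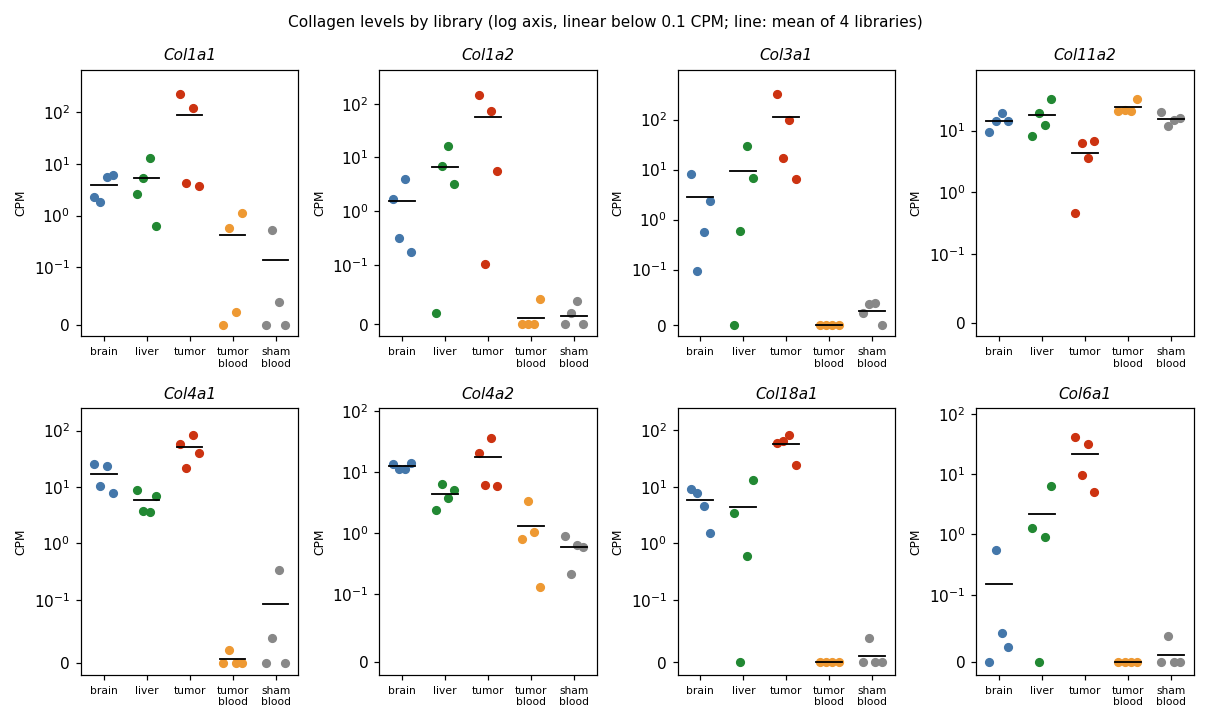
Levels of 8 collagen genes in CPM (log axis, linear below 0.1 CPM) in each library of the 5 groups, with a line at the mean of 4 libraries. Col3a1, Col18a1 and Col6a1 are at 0 in every blood library of tumor mice, and Col11a2 is lowest in the 4 tumor libraries.

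Of the collagens of basement membranes, Col4a1, Col4a2, Col18a1 and Col15a1 were higher in each tumor library than in any blood library of tumor mice, and Col4a3 to Col4a6 were not called. Col4a1 was at 57.7, 21.5, 82.1 and 39.7 CPM in tumor and had 1 read in the blood of tumor mice. The groups did not overlap, with a ratio of 9548 (counting interval 1713 to 377166, edgeR adjusted p = 1.23e-07). Col4a2, its partner chain in the type IV trimer, was at 20.6, 6.05, 36.6 and 5.79 CPM in tumor and at 0.807, 3.29, 1.04 and 0.130 CPM in the blood of tumor mice (log2 fold change 3.71 ± 0.76 SE, adjusted p = 0.000915). Col18a1, whose protein carries the endostatin fragment, was at 58.6, 64.9, 81.1 and 24.4 CPM in tumor, where no blood library of tumor mice held a read, and was at least 3661-fold higher (adjusted p = 1.67e-05). Col15a1, the close relative of Col18a1 in basement membrane zones, was at 5.39, 3.61, 5.59 and 5.77 CPM in tumor and at 0, 0, 0.198 and 0.0648 CPM in the blood of tumor mice (log2 fold change 6.23 ± 1.52 SE, adjusted p = 0.00398). Without tumor libraries 1 and 3, Col4a1, Col18a1 and Col15a1 kept their calls and Col4a2 did not (adjusted p = 0.0746).

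Microfibril and fibril-associated collagens were also called higher in tumor. Col6a1, a chain of the beaded filaments of type VI collagen, was at 40.9, 9.68, 31.1 and 5.10 CPM in tumor and had no read in the blood of tumor mice, so it was at least 1391-fold higher (edgeR adjusted p = 0.000231). Col6a2, the second chain of that trimer, was at 25.5, 5.65, 16.4 and 5.50 CPM in tumor against 1 read in the blood of tumor mice (ratio 2527, counting interval 453 to 99855, adjusted p = 0.000423). Col14a1, which coats fibrils, was at 15.98, 10.03, 17.7 and 2.80 CPM in tumor and at 0, 0, 0 and 0.151 CPM in the blood of tumor mice (log2 fold change 8.18 ± 1.91 SE, adjusted p = 0.00345). None of these 3 genes overlapped between the groups, and all 3 were called without tumor libraries 1 and 3. Col6a3 (5.87, 0.612, 0.506 and 0 CPM in tumor), Col8a1 of the hexagonal networks (8.28, 0, 7.68 and 0 CPM) and Col16a1, a fibril-associated chain (3.05, 0, 0.328 and 0 CPM), were at 0 in the blood of tumor mice and were called with adjusted p of 0.0295, 0.0359 and 0.0432. These 3 calls rested on few libraries. Leaving out tumor library 1, tumor library 3 (for Col8a1 and Col16a1), any 1 library from the blood of tumor mice or, for Col16a1, sham library 3 removed them, at adjusted p of 0.0579 to 0.0817 for Col6a3, 0.0595 to 0.0729 for Col8a1 and 0.0534 to 0.142 for Col16a1.

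By class, 5 of 11 fibrillar chains were called higher and 1 lower, 2 of 6 chains of the basement membrane network higher, 3 of 6 of beaded filaments, both multiplexins (Col15a1 and Col18a1), 2 of 8 fibril-associated chains and 1 of 3 hexagonal network chains, with none of the 4 transmembrane collagens. In all, 15 of 42 collagen genes were called higher in tumor than in the blood of tumor mice (35.7%), where 9.5% of all genes tested were, and 1 was called lower, where 3.27% were. These groups shared no lane, with tumor in lanes 2, 3 and 5 and the blood of tumor mice in lanes 1 and 4. With lane as a term 12 were called higher and 0 lower. Col5a2, Col8a1 (edgeR adjusted p = 0.773) and Col16a1 (0.0791) were then lost. Without tumor libraries 1 and 3, left out after seeing the data, 8 were called higher and 1 lower. The lower gene was then Col27a1 (log2 fold change -7.55, edgeR adjusted p = 0.0208) and not Col11a2. Tumor libraries 2 and 5 held no read of Col27a1, so this fold change was set by the fit and not measured. The median log2 fold change of the collagen genes was 4.75. Over all genes the median was exactly 0 in each of the 7 comparisons. Genes with no read in either compared group are fitted at 0, so that value is not an informative background. Scaling by DESeq2's size factors shifted the median gene by 0.13 in this comparison, -0.12 in brain against tumor and 0.15 in tumor against liver on the log2 scale.

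Col11a2 went the other way. It was at 0.462, 6.18, 3.65 and 6.89 CPM in tumor libraries 1, 2, 3 and 5 and at 20.8, 21.8, 20.6 and 32.4 CPM in the blood of tumor mice, with no overlap. The log2 fold change was -2.48 ± 0.54 (SE, edgeR adjusted p = 0.00162). With lane as a term it was -1.78 (adjusted p = 0.139), and without tumor libraries 1 and 3 it was -1.88 (adjusted p = 0.00797), under the fold threshold. Brain (9.32, 14.3, 19.4 and 14.3 CPM), liver (8.05, 19.53, 12.3 and 32.3 CPM) and sham blood (19.8, 11.8, 15.01 and 15.98 CPM) were closer to it. Liver overlapped with the blood of tumor mice, whereas every brain library and every sham library lay below its lowest library. Against the blood of tumor mice the log2 fold change was -0.74 ± 0.52 in brain (edgeR adjusted p = 0.428) and -0.41 ± 0.51 in liver (0.772), and the blood of tumor mice differed from sham blood by 0.61 ± 0.52 (SE, 0.621). Neutrophil markers fell in tumor alongside it, with 10 of the 14 called lower than in the blood of tumor mice, beside 3.27% of all genes. Their part in this difference was not tested.

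To show a collagen that rose in tumor beside the 1 that fell, the 250 bases before the start of Col3a1 (chr1:45311288-45311537, plus strand) and of Col11a2 (chr17:34038888-34039137, plus strand) are shown 5′ to 3′ from RefSeq on GRCm38.p6. Motifs were searched on both strands, and capitals mark each match. They were the TATA box core TATAAA, the CCAAT box and the GC box GGGCGG, which do not overlap here.
Col3a1: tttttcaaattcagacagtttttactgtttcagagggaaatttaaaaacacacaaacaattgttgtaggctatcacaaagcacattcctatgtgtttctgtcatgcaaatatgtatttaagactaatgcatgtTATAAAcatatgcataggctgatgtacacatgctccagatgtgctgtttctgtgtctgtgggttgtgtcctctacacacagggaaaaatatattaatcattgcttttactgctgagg
Col11a2: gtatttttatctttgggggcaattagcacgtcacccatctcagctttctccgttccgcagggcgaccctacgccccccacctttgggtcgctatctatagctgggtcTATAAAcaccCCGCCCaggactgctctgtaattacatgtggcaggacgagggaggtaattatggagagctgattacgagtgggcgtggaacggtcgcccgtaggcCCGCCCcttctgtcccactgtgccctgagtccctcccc
TATAAA began 117 bases before the Col3a1 start and 143 bases before the Col11a2 start. Col11a2 also held the GC box on the other strand, read there as CCGCCC, at 133 and 38 bases before its start, and neither promoter held a CCAAT box. RefSeq gave 36 promoters for 34 of the collagen genes. Of these, 5 (13.9%) held TATAAA, against 12.4% of all 32851 promoters of this length, 12 (33.3%) held the CCAAT box, against 33.8%, and 22 (61.1%) held the GC box, against 32.7%. These matches are a description of letters and not of bound sites.

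Brain-infiltrating neutrophils were compared with circulating neutrophils of the same kind of mice. Col4a1, Col4a2 and Col18a1 were called higher in brain. Col4a1 was at 25.0, 10.2, 23.8 and 7.91 CPM in brain libraries 2, 3, 4 and 5, against 1 read in the blood of tumor mice (ratio 3085, counting interval 553 to 121906, edgeR adjusted p = 3.5e-06). Col4a2 was at 13.4, 11.3, 11.2 and 14.1 CPM in brain, above the highest blood library of tumor mice at 3.29 CPM (log2 fold change 3.25 ± 0.75 SE, adjusted p = 0.0122). Col18a1 was at 9.12, 7.64, 4.65 and 1.53 CPM in brain and at least 358-fold higher (adjusted p = 0.00141). All 3 genes were higher in every brain library than in any blood library of tumor mice.

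Col3a1 (8.33, 0.0967, 0.553 and 2.40 CPM in brain), Col1a2 (1.66, 0.310, 3.95 and 0.173 CPM) and Col6a2 (0.672, 1.14, 5.59 and 0.0216 CPM) were the other brain calls, with edgeR adjusted p of 0.0422, 0.0465 and 0.0144. Thus 6 of 42 were called higher, where 2.67% of all genes were, and 0 lower, where 0.4% were. At an unadjusted p under 0.05, 19 differed, and DESeq2 called 11 higher and 0 lower, without a share of all genes computed for these counts. The median log2 fold change of the collagen genes was 3.40. Without library 1 or without library 3 of the blood of tumor mice, 3 were called. Col4a2 (adjusted p = 0.0561 and 0.0511), Col1a2 and Col3a1 were lost in each case, and Col6a2 without library 3 (0.0502), where Col15a1 was called instead (0.0444). Col3a1 was also lost without brain library 2, 4 or 5, liver library 4, any 1 blood library of tumor mice or sham library 1, 2 or 4 (adjusted p 0.0508 to 0.104), and Col1a2 without brain library 2 or 4, liver library 2 or 4, any 1 blood library of tumor mice or any 1 sham library (0.0524 to 0.135). With lane as a term Col3a1 (adjusted p = 0.159) and Col1a2 (0.357) were lost as well.

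Endothelial and mural markers were also higher in brain. The summed level of 13 endothelial markers was 195 to 698 CPM in brain and 13.6 to 22.2 CPM in the blood of tumor mice. Of them 10 were called higher in brain, where 2.67% of all genes were. Cldn5, a tight junction gene of brain endothelium, was at 42.4, 12.1, 81.2 and 12.4 CPM in brain libraries 2, 3, 4 and 5. Libraries 2 and 4 were the higher pair for both Cldn5 and Col4a1, but not for Col4a2 (highest in 5 and 2) or Col18a1 (highest in 2 and 3). Of 11 pericyte and smooth muscle markers, 7 were called higher in brain, among them Rgs5 at 26.2, 10.2, 34.2 and 8.95 CPM. So were 8 of 12 macrophage and microglia markers, 4 of 8 meningeal fibroblast markers and 4 of 8 choroid plexus markers. Of 14 fibroblast markers, 1 was called higher in brain. Brain library 4 also stood out for choroid plexus markers, whose sum of 2380 CPM compares with 39.4 to 131 CPM in the other brain libraries. In that library Col9a3, a fibril-associated type IX chain, reached 28.6 CPM, Col8a1 9.39 CPM and Col8a2 6.29 CPM, against at most 4.14, 0.605 and 0.368 CPM in the other brain libraries. The part of these cell types in the brain collagen levels was not tested.

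**Figure D4:**
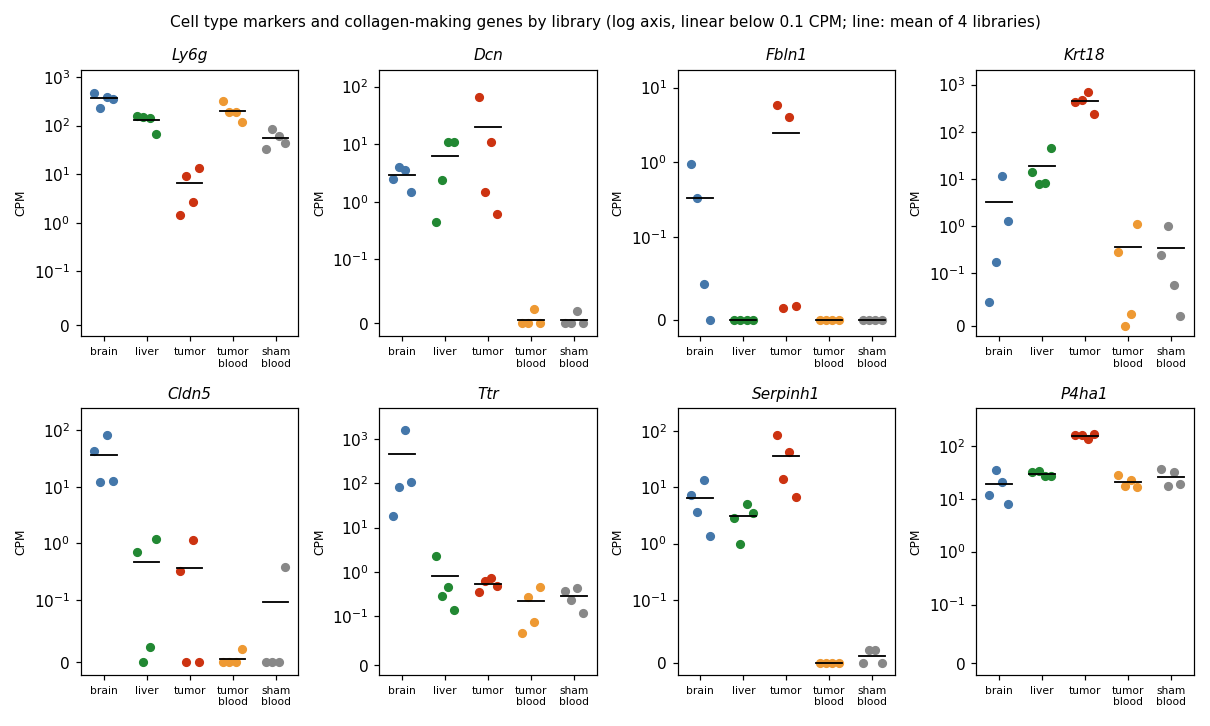
Markers of neutrophils (Ly6g), fibroblasts (Dcn, Fbln1), epithelium (Krt18), brain endothelium (Cldn5) and choroid plexus (Ttr), and the collagen-making genes Serpinh1 and P4ha1, in CPM (log axis, linear below 0.1 CPM) per library, with a line at the mean of 4 libraries. Ly6g is lowest and Krt18 highest in the 4 tumor libraries, and Ttr reaches 1648 CPM in brain library 4.

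Liver neutrophils showed a partly shared set. Against the blood of tumor mice, 6 of 42 collagen genes were called higher, where 2.7% of all genes were, and 0 lower, where 0.257% were. DESeq2 called 11 higher and 15 had an unadjusted p under 0.05, counts for which no share of all genes was computed. The median log2 fold change of the collagen genes was 1.65. Col4a1 was at 8.91, 3.74, 3.66 and 6.99 CPM in liver libraries 1 to 4, all above blood (ratio 1125, counting interval 202 to 44485, edgeR adjusted p = 1.02e-05). Col18a1 was at 3.36, 0, 0.607 and 13.4 CPM in liver and at least 290-fold higher (adjusted p = 0.00171), although liver library 2 held no read. Col3a1 (0, 0.602, 29.7 and 6.77 CPM), Col1a2 (0.0191, 6.93, 16.3 and 3.15 CPM), Col6a1 (1.30, 0, 0.922 and 6.39 CPM) and Col6a2 (0.956, 0, 2.06 and 4.63 CPM) were called with adjusted p of 0.0135, 0.00949, 0.00897 and 0.0126, and 1 liver library in each lay within the range of blood. These 6 calls held when any 1 library was left out. Liver libraries 3 and 4, with the most Col3a1, also held the most Dcn (10.8 and 11.1 CPM, against 0.440 and 2.39 CPM in libraries 1 and 2). Other collagens differed from this order. Col1a1 was at 2.58, 5.26, 13.2 and 0.633 CPM in liver libraries 1 to 4, lowest in library 4. Col1a2 was higher in library 2 than in library 4. Of 14 fibroblast markers Dcn alone was called higher in liver than in the blood of tumor mice. So were 6 of 13 markers of tumor epithelium, 5 of 8 of hepatocytes and 5 of 12 of macrophages, but 0 of 8 of hepatic stellate cells. Krt19, an epithelial keratin, was at 7.47 to 135 CPM in liver, and Fgb, a fibrinogen chain made by hepatocytes, at 15.002 to 21.6 CPM, against at most 0.0436 and 0 CPM in the blood of tumor mice. The part of these cell types in the liver collagen levels was not tested.

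Col1a1, Col1a2, Col3a1, Col6a1, Col14a1 and Col18a1 were lower in brain than in tumor. In this comparison 6 of 42 were called lower in brain, where 3.82% of all genes were, and 0 higher, where 2.69% were. The median log2 fold change was -0.82. Col6a1 was at 0, 0.542, 0.0425 and 0.0216 CPM in brain, below all tumor libraries (log2 fold change -7.12 ± 1.62 SE, edgeR adjusted p = 0.00442). Col14a1 (-5.07 ± 1.63, adjusted p = 0.0411) and Col18a1 (-3.32 ± 1.05, adjusted p = 0.0385) also differed without overlap. Col3a1 (-5.33 ± 1.56, adjusted p = 0.025), Col1a2 (-5.20 ± 1.49, adjusted p = 0.0196) and Col1a1 (-4.45 ± 1.33, adjusted p = 0.0245) differed with overlapping libraries. Col11a2 differed by 1.74 ± 0.53 (adjusted p = 0.0277), under the fold threshold. Col4a2 differed by -0.46 ± 0.69 (SE), with 12.5 ± 1.48 CPM in brain and 17.3 ± 14.6 CPM in tumor (SD, n = 4).

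Of these 6 calls, 5 were lost when some 1 library was left out. The 6 became 1 without brain library 3 or tumor library 1 and 3 without brain library 4, brain library 5 or tumor library 3. Without tumor library 5, Col11a2 was called higher in brain (2.05, adjusted p = 0.0183). Without both tumor libraries 1 and 3, Col27a1 alone was called higher in brain (edgeR adjusted p = 0.0127) and 0 were called lower. Tumor libraries 2 and 5 held no read of Col27a1, so its log2 fold change of 9.64 was set by the fit and not measured. Col6a1 kept its call in each leave-out of 1 library, and had an adjusted p of 0.0871 without both tumor libraries. With lane as a term Col18a1 lost its call (edgeR adjusted p = 0.198).

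Between brain and liver, edgeR called 0 collagen genes higher and 0 lower, where 0.504% of all genes were called higher in brain and 0.883% lower. At an unadjusted p under 0.05, 11 differed, and DESeq2 called 1 higher (Col5a3) and 0 lower. In 3 collagen genes the libraries did not overlap. No share of all genes was computed for these counts, so they cannot be set against a background. Col4a2 was at 11.2 to 14.1 CPM in brain and 2.33 to 6.31 CPM in liver (log2 fold change 1.52 ± 0.70 SE, edgeR adjusted p = 0.272). Col5a1 was at 5.42 to 23.8 CPM in brain and 0.772 to 2.30 CPM in liver (2.82 ± 1.41 SE, adjusted p = 0.300), and was called higher in brain when only these groups were fitted (0.0262). Col27a1, another fibrillar chain, was at 0.994 to 3.23 CPM and 0 to 0.461 CPM (3.32 ± 1.58 SE, adjusted p = 0.281). Without brain library 3, Col6a1 was called lower in brain (-6.50, adjusted p = 0.0464).

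Tumor libraries exceeded liver libraries in 4 collagen genes, where 1.18% of all genes were called higher. Tumor libraries fell below liver libraries in 1, where 1.35% were called lower. The median log2 fold change was 2.12. Col4a1 (log2 fold change 3.11 ± 0.71 SE, edgeR adjusted p = 0.00574) and Col18a1 (3.71 ± 1.07, adjusted p = 0.0348) were higher in every tumor library than in any liver library. Col12a1, a fibril-associated chain, was at 5.60, 0, 2.15 and 0 CPM in tumor and had no read in liver, at least 125-fold higher (adjusted p = 0.0364). Col5a3, with no read in liver, was at least 62.0-fold higher (adjusted p = 0.0445). Col11a2 was lower (-2.07 ± 0.54 SE, adjusted p = 0.0153). Without both tumor libraries 1 and 3, 0 were called higher and 0 lower.

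The higher calls became 1 without liver library 1 or 3 or tumor library 1 or 3, and 2 without liver library 2 or 4 or sham library 1. Of them, the Col4a1 call alone held in every leave-out of 1 library. Col18a1 was also lost without tumor library 2 or sham library 2 (adjusted p 0.0517 to 0.0918 over its 6 losses) and Col5a3 without tumor library 2 or sham library 3 or 4 (0.0543 to 0.103 over its 10). Col11a2 fell out without liver library 2 or 4 or tumor library 1 or 3, at log2 fold changes of -1.999 to -1.60 and adjusted p of 0.0122 to 0.0698. With lane as a term Col4a1 (edgeR adjusted p = 0.0585), Col12a1 (0.110) and Col11a2 (0.159) were not called.

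Between the blood groups, 0 collagen genes were called by edgeR, where 0.605% of all genes were called higher in tumor mice and 0.855% lower. At an unadjusted p under 0.05, 3 differed, and DESeq2 called 1 higher (Col8a2) and 2 lower (Col5a3 and Col4a1). For these counts no share of all genes was computed. Col5a3 came closest, at 4.32, 0, 1.70 and 2.07 CPM in sham blood and with no read in the blood of tumor mice (edgeR adjusted p = 0.0578). In sham library 2 it was at 0 as well, so the groups overlapped, and without that library Col5a3 was called lower in tumor mice (0.0377), as it was without brain library 2 (0.0212) or 4 (0.0408).

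**Figure D5:**
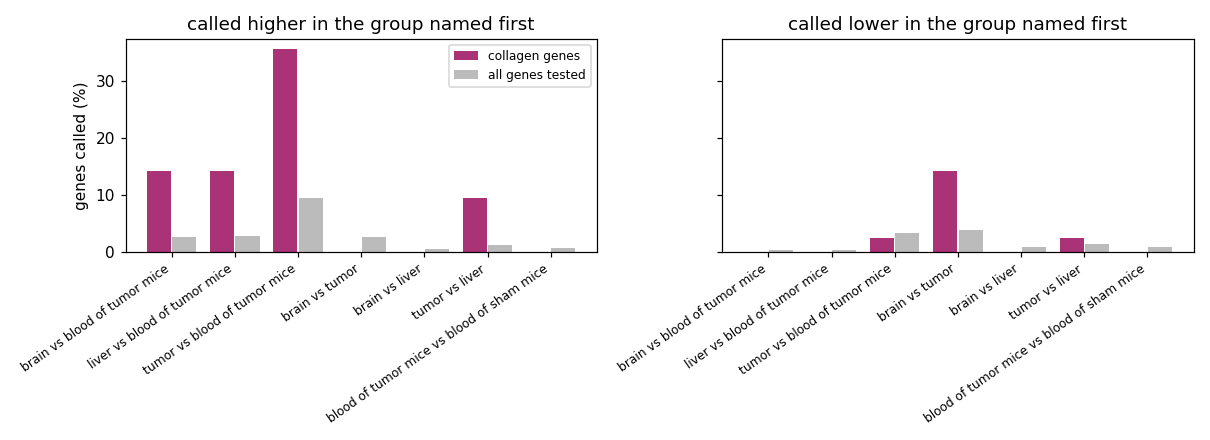
Percent of the 42 collagen genes (purple) and of all genes tested (grey) called higher (left) or lower (right) in each of 7 comparisons, by the same edgeR thresholds. The highest share is 35.7% of collagen genes called higher in tumor than in the blood of tumor mice, beside 9.5% of all genes.

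Genes that make and handle collagen were followed as lists. Of 21 biosynthesis enzymes and chaperones, 13 were called higher in tumor than in the blood of tumor mice and 0 lower. In brain 6 were called higher and in liver 4. Of all genes, 9.5% were called higher in tumor, 2.67% in brain and 2.7% in liver, and 3.27% lower in tumor. The median log2 fold changes of the list were 4.94 in tumor, 2.21 in brain and 1.83 in liver. Serpinh1, the collagen chaperone Hsp47, was at 83.7, 14.2, 41.7 and 6.74 CPM in tumor libraries 1, 2, 3 and 5, at 7.28, 3.69, 13.4 and 1.38 CPM in brain, at 2.81, 1.00, 5.07 and 3.52 CPM in liver and at 0 in all 4 blood libraries of tumor mice. It was called higher in the 3 tissues than in that blood (edgeR adjusted p = 7.3e-07 in tumor, 4.57e-05 in brain and 7.9e-05 in liver). P4ha1, a subunit of the prolyl hydroxylase that stabilizes the helix, was at 132 to 169 CPM in tumor and 7.91 to 36.3 CPM in all other groups (2.89 ± 0.35 SE against the blood of tumor mice, adjusted p = 2.28e-06). Its 4 tumor libraries lay close together, without the gap that set tumor libraries 1 and 3 apart in Col1a1. P4hb, the other subunit, rose by 2.21 ± 0.21 (adjusted p = 1.39e-07), and Colgalt1, which adds galactose to collagen, by 2.34 ± 0.37 (adjusted p = 5.57e-05).

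Of 15 genes for procollagen processing and cross-linking, 8 were called higher in tumor than in the blood of tumor mice, 1 higher in brain and 0 in liver, beside 9.5%, 2.67% and 2.7% of all genes. Lox, which cross-links fibers, was at 50.1, 0, 21.2 and 0.540 CPM in tumor (edgeR adjusted p = 0.00327), again highest in libraries 1 and 3. Bmp1, the procollagen C-proteinase, was at 11.4, 7.71, 9.64 and 0 CPM (adjusted p = 0.00262). Of 26 other matrix genes of fibroblasts and basement membranes, 20 were called higher in tumor, 9 in brain and 10 in liver than in the blood of tumor mice. Among them Sparc, a collagen-binding glycoprotein, was at 210, 6.85, 92.0 and 19.9 CPM in tumor, 43.3 to 157 CPM in brain, 3.37 to 14.7 CPM in liver and at most 0.0654 CPM in the blood of tumor mice.

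Of 10 collagen receptors, 3 were called higher and 1 lower in tumor than in the blood of tumor mice, beside 9.5% and 3.27% of all genes. Itga1, a collagen-binding integrin chain, was higher in tumor (9.02 ± 1.57 SE, edgeR adjusted p = 0.000164), brain and liver, and Gp6, the collagen receptor of platelets, was lower in tumor (-5.42 ± 1.69 SE, adjusted p = 0.0215). In the blood of tumor mice, the reference here, Itga1 was itself called lower than in sham blood (-6.89 ± 1.47 SE, adjusted p = 0.00822). Of 14 collagen-degrading proteases, 5 were called higher and 1 lower in tumor, beside the same shares of all genes. The lower gene was Mmp8, at 113, 242, 228 and 906 CPM in tumor and 5094 to 7726 CPM in the blood of tumor mice (-4.15 ± 0.46 SE, adjusted p = 7.64e-07). Mmp12, the macrophage elastase, was at 570, 59.3, 223 and 98.9 CPM in tumor and 0 to 11.4 CPM in the blood of tumor mice (6.37 ± 1.58 SE, adjusted p = 0.00455).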

How the data were processed

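RNA of sorted neutrophils was amplified from 250 pg with SMART-Seq v4 and sequenced as single reads on an Illumina HiSeq with 4 libraries per lane. The authors deposited whole-number read counts per Ensembl gene without normalization, which were used as they stand. Their rlog values were not used. The submitters' processing notes name mm10 and DESeq2. Neither aligner, counter nor strand setting is stated in the sources at hand.

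After 6 repeated entries were dropped, 28762 genes with a count were tested with edgeR 4.0.16 in R 4.3.3 (TMM, quasi-likelihood test, 1 model over 20 libraries, two-sided, Benjamini-Hochberg over all genes), at an adjusted p under 0.05 and a log2 fold change of at least 2. The script was tested on simulated data. Positions and exon lengths come from GENCODE M21. Alternatives were DESeq2 1.42.0, its size factors, filterByExpr, only the compared groups, lane, a replicate block and leaving out libraries. Named genes were those called in at least 1 of 7 comparisons or among the 10 most abundant. Of each related list, up to 4 called genes of highest mean level were eligible, and some items are not reported here. Members, lists and rules were chosen with earlier results of these data known.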

Additional observations from a re-analysis of the deposited data

Results flagged for a closer look

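Among the summed collagen level and the 18 collagen genes described singly, 95 groups of 4 libraries were screened for a library far from the other 3 by Dixon's ratio of gap to range at the 95% level. In groups of normally distributed values chance flags about 1 in 20, and CPM levels need not be distributed in that way. Of the 25 found, 12 have the other 3 libraries at 0, where reads in 1 library are enough and that rate does not apply. In the tissues, the highest library stood apart for Col14a1 in brain library 2 (1.28 CPM) and liver library 2 (5.97 CPM), Col5a3 in brain library 2 (1.75 CPM), Col6a1 in brain library 3 (0.542 CPM), Col6a3 in brain library 3 (3.54 CPM), liver library 2 (0.0223 CPM) and tumor library 1 (5.87 CPM), Col16a1 in liver library 4 (0.277 CPM) and tumor library 1 (3.05 CPM), and Col5a1 (23.8 CPM) and Col8a1 (9.39 CPM) in brain library 4.

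In the blood of tumor mice it stood apart for Col11a2 in library 4 (32.4 CPM, others 20.6 to 21.8 CPM), and, with the other libraries at 0, for Col12a1 (0.0609 CPM) and Col4a1 (0.0203 CPM) in library 2, Col14a1 (0.151 CPM) and Col1a2 (0.0432 CPM) in library 4 and Col6a2 in library 1 (0.0218 CPM). In sham blood it did so for the summed level in library 1 (32.7 CPM, others 23.8 to 24.9 CPM), Col12a1 in library 1 (0.0226 CPM), Col16a1 (0.0195 CPM) and Col4a1 (0.332 CPM) in library 3, and Col1a1 (0.523 CPM), Col5a2 (0.407 CPM), Col18a1 (0.0388 CPM) and Col6a1 (0.0388 CPM) in library 2.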

How the results depend on the processing

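Of 39 called pairs of collagen gene and comparison, 20 kept their call under DESeq2, its size factors, filterByExpr, only the compared groups, lane, the replicate block and leaving out any 1 library, 16 of them also without tumor libraries 1 and 3, and 0 values reversed. DESeq2 called 11 genes higher in brain and 11 in liver than in the blood of tumor mice, 1 higher in brain than in liver, 7 higher and 0 lower in tumor than in liver, and 1 higher and 2 lower in the blood of tumor mice than of sham mice. Its size factors with edgeR's test gave 0 lower in tumor than in liver, as did only the compared groups and lane as a term. Lane also gave 0 lower in tumor than in the blood of tumor mice. With only the compared groups 1 was higher in brain than in liver and 1 lower between the blood groups, where filterByExpr also gave 1. Shares of all genes were computed for the main edgeR calls only.

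Leaving out 1 library in turn gave 3 to 6 genes higher in brain, 6 to 7 in liver and 12 to 17 in tumor than in the blood of tumor mice, 0 to 1 higher and 1 to 6 lower in brain than in tumor, 0 to 1 lower in brain than in liver, 1 to 6 higher and 0 to 1 lower in tumor than in liver, and 0 to 1 lower between the blood groups. Without tumor libraries 1 and 3, chosen after seeing the data, 8 genes were higher in tumor than in the blood of tumor mice, 1 higher and 0 lower in brain than in tumor, and 0 higher and 0 lower in tumor than in liver. Col8a1, Col16a1 and, against liver, Col12a1 then had no reads left to compare. The cause of these changes was not tested.

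Correlations did not settle whether the replicate numbers pair the libraries. Over 12275 genes, 5 of 23 same-numbered pairs had deviations correlated above 0.1 (range -0.11 to 0.16). In 7 of these 23 both libraries correlated best with each other. The other pairs of each comparison averaged -0.023 to 0.0036. With the replicate block, 4, 6 and 13 genes were called higher in brain, liver and tumor than in the blood of tumor mice, 4 lower in brain than in tumor and 3 higher in tumor than in liver. In brain against tumor, Col1a1 (edgeR adjusted p = 0.190), Col3a1 (0.310) and Col1a2 (0.0835) lost their calls with it, and Col6a2 gained one (0.0387). Counts of a few reads per group limit what can be told about most members.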
